A study of Mus musculus with 9 samples.

Results

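The genes described here are the class I basic helix-loop-helix (bHLH) genes, whose products are called E proteins, and the Id genes, whose products block them. They were taken by symbol: Tcf3, Tcf4 and Tcf12 for the E proteins and Id1, Id2, Id3 and Id4 for the inhibitors, 7 of the 41128 genes in the deposited tables. All 7 were among the 15271 genes with enough counts to be tested, so none was lost to the filter on low counts. The rule names them by symbol and uses no measured value, although earlier results of these data were known when it was set.

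E proteins bind DNA as dimers at a short motif called the E-box, either with each other or with class II bHLH factors such as the proneural proteins, which need an E protein partner to work. Id proteins have the helix-loop-helix that makes dimers but lack the basic stretch that touches DNA, so a dimer that holds one cannot bind. In the developing cortex Id genes are known targets of bone morphogenetic protein (BMP) signalling, and the balance of E, Id and proneural proteins is known for its part in the timing of differentiation.

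RNA was measured in the dorsal telencephalon, the part of the forebrain that forms cortex and hippocampus, of newborn mice (postnatal day 0) of the strain B6:129SF2/J. There were 3 libraries each from brains labelled wildtype (WT), heterozygous for TCF4 (Het) or TCF4 knockout (KO). Tcf4, the gene the labels name as altered, is itself 1 of the 7 members. The part of Tcf4 that was changed, the cells in which it was changed, and whether each library came from 1 pup are not given in the sources used here, so the p-values measure the spread between these libraries, which may be technical. All 3 groups carry the same labels of strain, tissue and age, and no other allele or treatment is named.

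Total counts ran from 22291940 to 23813314 in WT, 24008445 to 29398411 in Het and 26355671 to 29445788 in KO. Defining genes of the labelled tissue were detected in every group, with Emx1, a transcription factor of the dorsal telencephalon, at 40.3 ± 3.53 CPM (counts scaled to a common library total) in WT, 53.0 ± 4.04 in Het and 59.1 ± 4.6 in KO, and the cortical factor Tbr1 at 253 ± 32.1, 247 ± 16.7 and 253 ± 9.31 (SD, n = 3). The WT libraries stood apart in ways the labels do not describe: processed pseudogenes took 0.225% to 0.276% of their counts against 0.0647% to 0.0834% in the other 6, and mitochondrial genes 1.01% to 1.14% against 0.716% to 0.840%. Summed levels of listed striatal neuron markers were 720 to 810 CPM in WT, 303 to 354 in Het and 303 to 307 in KO. Interneuron markers summed to 823 to 885, 613 to 700 and 585 to 645 CPM. Microglia markers summed to 123 to 140, 73.4 to 75.4 and 78.9 to 84.6 CPM. Sums of Cajal-Retzius cell markers were instead lowest in WT, at 477 to 540 CPM against 768 to 990 in Het and 704 to 778 in KO. Pericyte and smooth muscle markers summed to 191 to 197, 232 to 245 and 237 to 248 CPM. Sums of endothelial, intermediate progenitor and cortical excitatory neuron markers, given below, were also lowest in WT. The part of cell content in the differences from WT was not tested. A difference in handling between the WT libraries and the other 6 and a difference of genotype cannot be told apart here. The Het libraries had 0.711 to 1.66 CPM of the X-linked gene Hprt, against 41.5 to 42.8 in WT and 35.1 to 36.6 in KO, so they differ from both other groups in a gene that the labelled genotype does not name. WT replicate 2 had 1926 counts of the early-response gene Fos against 84 and 95 in the other WT libraries, and KO replicate 3 was the 1 library with counts of Xist above 3 (2730). It had 2 counts of the Y-linked gene Ddx3y, against 794 to 1220 in the rest. By these genes KO replicate 3 is female and the rest are male.

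On the mm10 build Tcf3 lies on chromosome 10 from 80409514 to 80433647 (minus strand), Tcf12 on chromosome 9 from 71842688 to 72111871 (minus) and Tcf4 on chromosome 18 from 69343356 to 69689079 (plus). Id1 is on chromosome 2 from 152736251 to 152737410 (plus), Id2 on chromosome 12 from 25093799 to 25097140 (minus), Id3 on chromosome 4 from 136143497 to 136145755 (plus) and Id4 on chromosome 13 from 48261228 to 48266026 (plus). The E protein genes are long and made of many exons, with up to 19 in a transcript of Tcf3 and 21 in one of Tcf4 or Tcf12, while the Id genes are compact, with 2 to 4.

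Genes on the opposite strand overlap Tcf12 and Id4. Of those in the tables, the largest total over the 9 libraries was 293 counts (Rpl15-ps2, inside Tcf12) and 78 (A330033J07Rik, at Id4). On the same strand 7 small annotated genes lie within Tcf12 and 1 within Tcf4, and reads there could be counted for either. Few stretches of the members recur elsewhere: of their 31-base words, 3.12% for Id4 and 1.6% for Id2 were found in other genes' transcripts, and under 1% for the rest.

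Because the members encode E-box factors and their inhibitors, the RefSeq promoters (build GRCm38.p6) of Tcf3, Tcf12, Id2 and Id4 are shown as examples of what their control regions hold. Each is written 5′ to 3′ on the gene's own strand and stops where an annotated exon of the gene begins, and capitals mark each match to the E-box CANNTG. For Tcf12, which has several start sites in RefSeq, the most upstream is shown. The Id2 stretch lies inside the annotated gene, which on the minus strand begins at 25097140, and so is not its outer flank.
Tcf3 (chr10:80433648-80433885, minus strand): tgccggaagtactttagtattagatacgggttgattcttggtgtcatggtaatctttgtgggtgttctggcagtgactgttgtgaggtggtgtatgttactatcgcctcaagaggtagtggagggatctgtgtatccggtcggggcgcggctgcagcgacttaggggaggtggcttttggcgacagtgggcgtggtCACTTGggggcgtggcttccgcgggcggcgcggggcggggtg
Tcf12 (chr9:72111872-72112069, minus strand): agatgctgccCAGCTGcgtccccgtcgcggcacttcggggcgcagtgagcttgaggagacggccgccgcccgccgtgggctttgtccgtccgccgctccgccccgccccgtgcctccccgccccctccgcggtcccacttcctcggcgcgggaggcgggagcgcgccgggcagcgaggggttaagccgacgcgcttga
Id2 (chr12:25096254-25096342, minus strand): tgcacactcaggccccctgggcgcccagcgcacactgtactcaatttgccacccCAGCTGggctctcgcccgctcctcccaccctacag
Id4 (chr13:48260866-48261115, plus strand): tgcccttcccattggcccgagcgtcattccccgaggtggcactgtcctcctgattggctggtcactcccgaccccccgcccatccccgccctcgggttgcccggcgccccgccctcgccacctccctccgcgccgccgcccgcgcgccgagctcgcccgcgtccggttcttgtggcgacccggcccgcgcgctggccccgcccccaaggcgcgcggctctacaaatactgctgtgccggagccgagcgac
The search used the whole window from 250 bases before to 50 after the start site, and CANNTG reads the same on both strands. Tcf3 had 1 match, CACTTG, 54 bases before the start. The Tcf12 window shown and that of Id2 each had 1, both CAGCTG, 240 and 196 bases before the start, while the windows of Id3 and Id4 held none. The Id3 window, like that of Id2, lies inside the annotated gene. The other Tcf12 starts differed: the window of the second held CAAGTG, 149 bases before it, and CACTTG, 18 after it, and that of the third held CATGTG, 5 before it. Of 32851 promoter windows of the same length 72.3% held CANNTG and 16.3% held CAGCTG, which is a subset of CANNTG. None of the windows of these 5 genes held CAGGTG or its reverse complement CACCTG, a form found in 20.2% of windows. A match is a string of letters and shows no binding.

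In KO compared with WT, the E protein genes Tcf3 and Tcf12 rose and the inhibitor genes Id2, Id3 and Id4 fell, while Tcf4 and Id1 did not pass the test. The called members were 2 higher and 3 lower of 7, where 52.8% of all tested genes were called (26.5% higher and 26.3% lower) at an adjusted p under 0.05. CPM values of the groups did not overlap for 5 of 7 members, against 62.7% of all tested genes. Members called and at least 1.5-fold apart were 5 of 7, against 22.4% of tested genes. Some lay near that cut: Id3 fell short of it without KO replicate 3 (log2 fold change -0.51) and Id4 without WT replicate 1 (-0.56). In a fit of log2(FPKM + 1), where FPKM are counts per gene length and library total, both fell short (-0.57 each). The median absolute log2 fold change was 0.63 over the 7 and 0.30 over all tested genes. In a whole tissue, fewer cells of a type and less RNA per cell cannot be told apart.

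**Figure D1:**
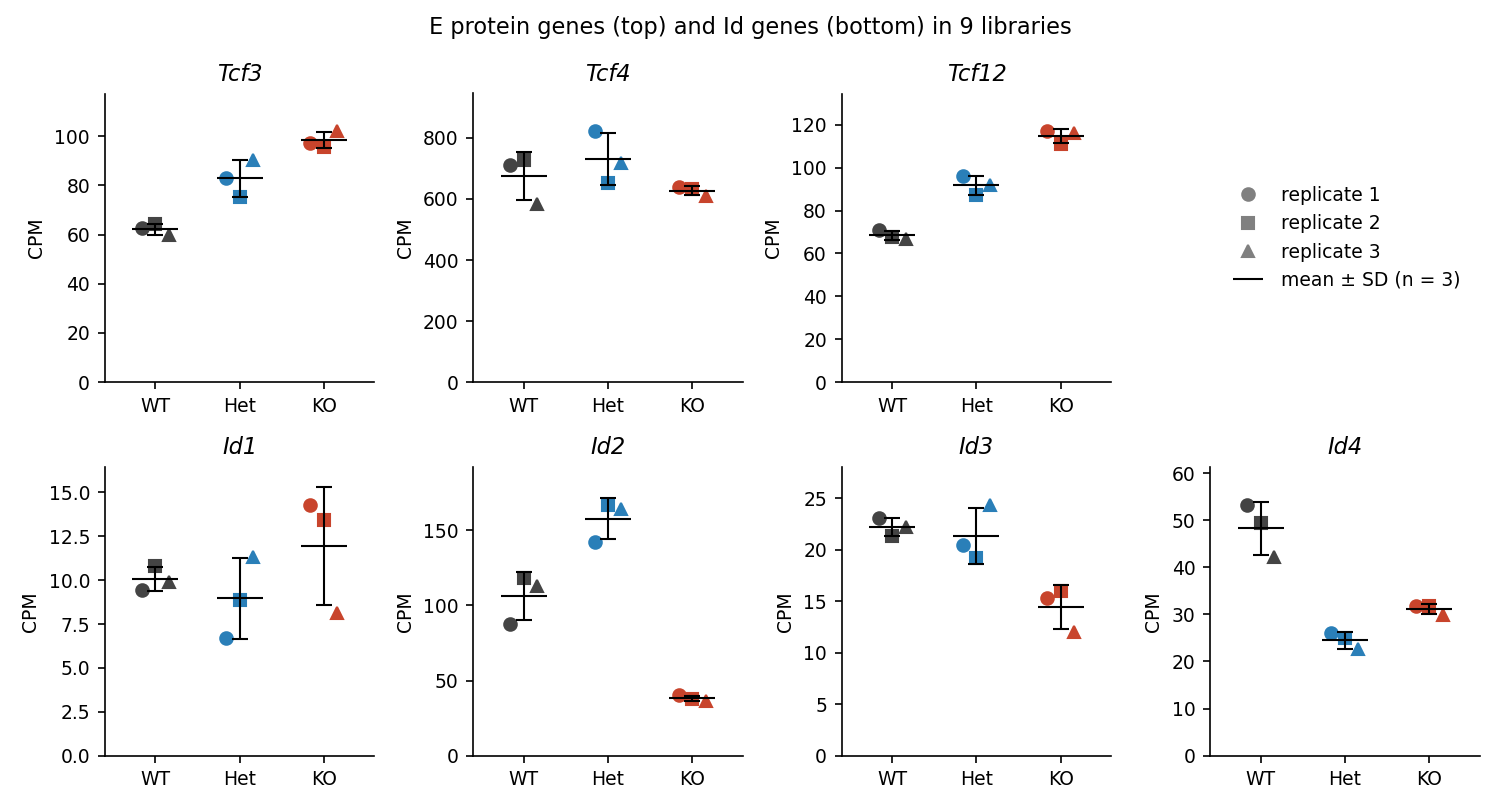
CPM (vertical axis, linear, from 0) of the 3 E protein genes and the 4 Id genes in the WT, Het and KO libraries; each point is 1 library, its shape gives the replicate number, and the bar and whiskers give the mean ± SD. Tcf3 and Tcf12 step up from WT to Het to KO, Id2 is highest in Het (142 to 167) and lowest in KO (36.6 to 40.1), and Id4 is highest in WT.

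Tcf4 was the most abundant member and its level did not follow the labelled genotype. It had 712, 728 and 584 CPM in WT, 822, 652 and 719 in Het, and 638, 633 and 611 in KO. The WT and Het ranges overlap, as do WT and KO, while each KO value lies below each Het value. By edgeR's quasi-likelihood test, which gives every fold change and adjusted p below, KO differed from WT by -0.10 on the log2 scale (95% interval -0.31 to 0.10, adjusted p = 0.36, 3 libraries in each group). Het differed from WT by 0.12 (interval -0.09 to 0.32, adjusted p = 0.33) and KO from Het by -0.22 (interval -0.42 to -0.02, adjusted p = 0.13). Counting error was at most 0.859% for this gene. A count over the whole gene does not check the label where only a part of it was changed, and the genotypes below are those of the labels. The difference of KO from WT passed the threshold when WT replicate 3 was left out, at -0.20 (adjusted p = 0.046), and KO versus Het passed without WT replicate 3 (-0.22, adjusted p = 0.043) or without Het replicate 2 (-0.31, adjusted p = 0.041). KO versus Het also passed when only these genotypes were fitted (-0.23, adjusted p = 0.043) and with no filter on low counts (-0.22, adjusted p = 0.038).

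Tcf12, which encodes the E protein also known as HEB, rose with each step of the labelled genotype. It had 70.7, 67.6 and 66.8 CPM in WT, 96.0, 87.4 and 91.9 in Het, and 117, 111 and 116 in KO. No value of one group falls within another. KO was 1.68-fold above WT (log2 fold change 0.75, SE 0.05, adjusted p = 5.5e-09), Het 1.34-fold above WT (0.42, SE 0.05, adjusted p = 6.8e-06) and KO 1.25-fold above Het (0.32, SE 0.05, adjusted p = 3.8e-04).

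Tcf3, which encodes the E2A proteins first known from B cell development, had nearly the same pattern. It had 62.5, 64.2 and 59.8 CPM in WT, 83.0, 75.2 and 90.1 in Het, and 97.3, 95.6 and 102 in KO. All 3 groups are again separate, with the widest spread in Het. KO was 1.58-fold above WT (0.66, SE 0.06, adjusted p = 2.3e-07), Het 1.33-fold above WT (0.41, SE 0.06, adjusted p = 6.3e-05) and KO 1.19-fold above Het (0.25, SE 0.06, adjusted p = 0.012). The KO versus Het call for Tcf3 was lost without Het replicate 2 (0.17, adjusted p = 0.094) and without KO replicate 3 (0.21, adjusted p = 0.062).

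Markers of intermediate progenitors, the dividing cells that give rise to cortical neurons, moved with Tcf3 and Tcf12. All 7 of the markers listed were higher in KO than WT (median log2 fold change 1.33), 5 were higher and 1 lower in Het, and their summed level was 196 to 204 CPM in WT, 284 to 313 in Het and 440 to 467 in KO. None of the 7 was at 0 in all libraries. Neurog2 and Insm1 are among the 7, so their values given below for like patterns and class II genes are not separate observations. Their part in the Tcf3 and Tcf12 values was not tested.

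Id2, known in cortex from subsets of projection neurons and from progenitors, was the member with the largest difference, and Het and KO differed from WT in opposite directions. It had 87.7, 118 and 113 CPM in WT, 142, 167 and 164 in Het, and 40.1, 37.4 and 36.6 in KO. The 3 groups do not overlap, with Het on top. Id2 was 1.48-fold higher in Het than WT (0.57, SE 0.10, adjusted p = 0.0013), 2.79-fold lower in KO than WT (-1.48, SE 0.11, adjusted p = 1.3e-06) and 4.14-fold lower in KO than Het (-2.05, SE 0.11, adjusted p = 8.4e-07). Only 0.308% of tested genes had a larger absolute log2 fold change between KO and Het. Over the alternatives and left-out libraries the KO versus Het value ran from -2.13 to -2.02. Listed markers of cortical excitatory neurons summed to 2504 to 2815 CPM in WT, 2863 to 3187 in Het and 3003 to 3071 in KO. Of these 12, 5 were higher and 4 lower than WT in KO and likewise in Het, 2 were lower and none higher in KO than Het, and none was at 0 in all libraries. Their part in the Id2 values was not tested.

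Id3 fell in KO against both other groups. It had 23.1, 21.4 and 22.2 CPM in WT, 20.5, 19.2 and 24.4 in Het, and 15.3, 16 and 12 in KO. WT and Het overlap, and KO lies below both. The fold was 1.55 lower for KO versus WT (-0.63, SE 0.11, adjusted p = 1.6e-04) and 1.48 lower for KO versus Het (-0.57, SE 0.11, adjusted p = 0.0018). Het differed from WT by -0.06 on the log2 scale (95% interval -0.29 to 0.17, adjusted p = 0.68). Id3 and Id1 are known from blood vessels as well as progenitors, and the summed level of 10 endothelial markers was 227 to 229 CPM in WT, 269 to 303 in Het and 294 to 309 in KO. Of these markers 4 were higher and 1 lower in KO than WT, 7 were higher and none lower in Het than WT, and none was at 0 in all libraries. Markers of meningeal fibroblasts summed to 96.4 to 129 CPM in WT, 116 to 131 in Het and 76.2 to 82.2 in KO, so KO was lowest there as for Id3. Of 9 tested, 2 were higher and 2 lower in KO than WT, 4 higher and none lower in Het than WT, and 2 lower and none higher in KO than Het (median log2 fold change -0.43). The part of these cells in the Id3 values was not tested.

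Id4, known from neural progenitors and the astrocyte lineage, was highest in WT and lowest in Het. It had 53.3, 49.4 and 42.1 CPM in WT, 26.1, 24.9 and 22.6 in Het, and 31.8, 31.8 and 29.9 in KO. No 2 groups overlap. Id4 was 1.97-fold lower in Het than WT (-0.98, SE 0.09, adjusted p = 1.7e-07), 1.55-fold lower in KO than WT (-0.63, SE 0.09, adjusted p = 1.1e-05) and 1.27-fold higher in KO than Het (0.34, SE 0.09, adjusted p = 0.012). The KO versus Het call for Id4 was lost without Het replicate 3 (0.29, adjusted p = 0.056), KO replicate 1 (0.33, adjusted p = 0.055) or KO replicate 2 (0.33, adjusted p = 0.054).

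Markers of other cell types were also higher in WT, where Id4 was highest. The summed level of 12 striatal neuron markers was 720 to 810 CPM in WT, 303 to 354 in Het and 303 to 307 in KO, with 12 lower in Het than WT and 11 lower in KO. Astrocyte markers summed to 853 to 909 CPM in WT, 444 to 485 in Het and 369 to 425 in KO, with 9 of 10 lower in each comparison with WT. Oligodendrocyte lineage markers summed to 455 to 489, 240 to 248 and 233 to 269 CPM, with 9 of 10 lower in Het and all 10 in KO. No marker of these 3 lists was at 0 in all libraries. Of 10 radial glia markers 5 were higher and 4 lower in Het, and 5 higher and 3 lower in KO, with sums of 2145 to 2314 CPM in WT, 1891 to 2070 in Het and 1873 to 1967 in KO. The part of these cells in the Id4 values was not tested.

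Id1, the least abundant member, did not pass the test in any comparison. It had 9.44, 10.8 and 9.90 CPM in WT, 6.72, 8.86 and 11.3 in Het, and 14.3, 13.4 and 8.10 in KO. The groups overlap throughout, and KO replicate 3 lies below all WT values while the other KO libraries lie above them. With 164 to 411 counts per library the counting error was 4.93% to 7.81%, while the SD over libraries was 25.8% of the mean in Het and 28.1% in KO. On the log2 scale KO differed from WT by 0.25 (95% interval -0.27 to 0.76, adjusted p = 0.39), Het from WT by -0.16 (interval -0.68 to 0.37, adjusted p = 0.62) and KO from Het by 0.40 (interval -0.11 to 0.92, adjusted p = 0.28). The first of these intervals includes the values of Tcf3 (0.66) and Tcf12 (0.75). Without KO replicate 3 Id1 was called higher in KO than WT (0.47, adjusted p = 0.033) and than Het (0.61, adjusted p = 0.024). The KO versus Het value for Id1 was 0.23 without Het replicate 1, 0.25 without KO replicate 1 and 0.61 without Het replicate 3.

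**Figure D2:**
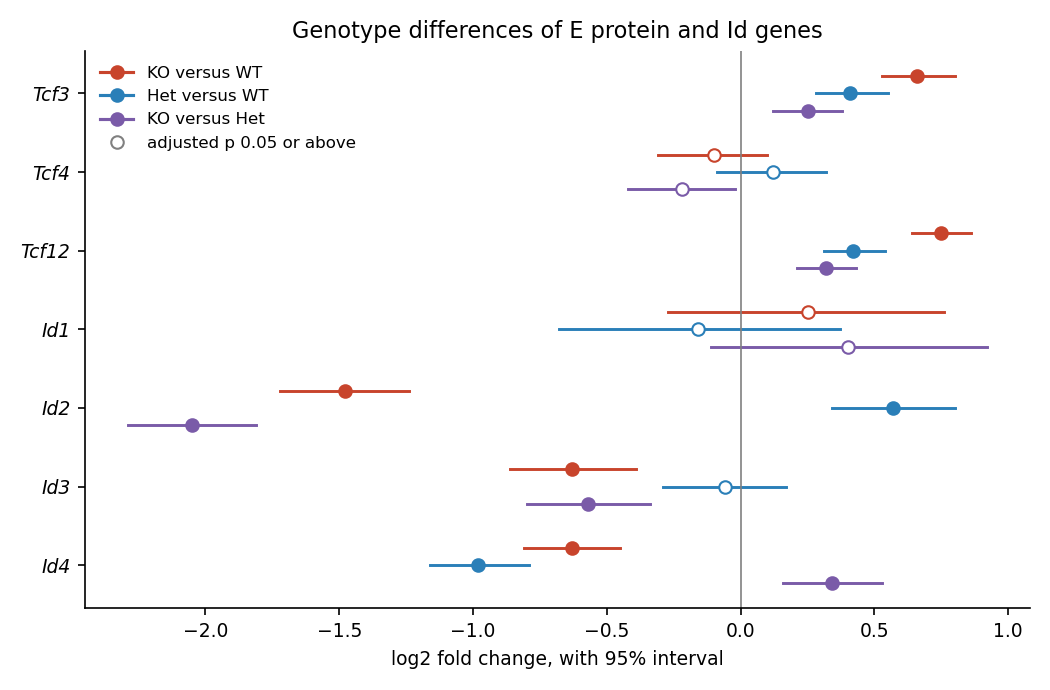
Log2 fold change (horizontal axis) of each member in the 3 comparisons, with 95% intervals from edgeR's quasi-likelihood fit; filled points had an adjusted p under 0.05 and open points did not. For Id2 the KO versus WT point (-1.48) and the Het versus WT point (0.57) lie on opposite sides of 0, and those of Tcf3 and Tcf12 are all above 0.

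In Het compared with WT, 4 of the 7 members were called, with Tcf3, Tcf12 and Id2 higher and Id4 lower, where 45.9% of all tested genes were called (22.5% higher and 23.4% lower). Id4 alone was called and at least 1.5-fold apart, against 16.5% of tested genes. Id2 lay near that cut at 1.48-fold and passed it without WT replicate 2 or without Het replicate 1 (log2 fold change 0.65 each). Without WT replicate 3 it passed too (0.62). It also passed with upper-quartile scaling (0.60), with library totals alone (0.62) and in fits of log2(FPKM + 1) (0.62) or log2(FPKM + 0.1) (0.63). Tcf3 passed it with offsets for GC content and gene length (0.60). The same 4 had groups that did not overlap, against 53.6% of tested genes. The median absolute log2 fold change of the members was 0.41 and that of all tested genes 0.26. The Het and KO comparisons with WT share their WT libraries, so their likeness is not counted as support.

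KO compared with Het does not use the WT libraries. The Het libraries also differ from KO in Hprt (0.711 to 1.66 CPM against 35.1 to 36.6), which the labelled genotype does not name. That difference and a difference of Tcf4 genotype cannot be told apart in this comparison. Here 5 of the 7 members were called, with Tcf3, Tcf12 and Id4 higher and Id2 and Id3 lower in KO, where 16.7% of all tested genes were called (8.30% higher and 8.44% lower). Id2 alone was called and at least 1.5-fold apart, against 4.81% of tested genes. Id3 lay near that cut and passed it without Het replicate 1 (log2 fold change -0.61), Het replicate 2 (-0.65), KO replicate 1 (-0.61) or KO replicate 2 (-0.65). It also passed with offsets for GC content and gene length (-0.59). Id1 was called and passed the cut without KO replicate 3 (0.61). CPM values did not overlap for 6 of 7, the 6 being these 5 and Tcf4, against 33.4% of tested genes. The median absolute log2 fold change was 0.34 over the members and 0.14 over all tested genes. Without Het replicate 2, KO replicate 1, KO replicate 2 or KO replicate 3 the number of tested genes called changed to 1753, 1467, 1432 and 2319 from 2556.

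Levels were compared between genes per length, as FPKM, which divide a count by gene length and library total. Each gene has 1 length in these values, 2585 bases for Tcf4, which has 62 annotated transcripts. Ranks, family sums and shares between genes depend on that length. In WT, Tcf4 led at 256 ± 30.6 FPKM (SD, n = 3), above Id2 at 81.8 ± 11.5. Id3 (28.5 ± 1.42), Id4 (28.5 ± 3.60), Tcf12 (27.1 ± 1.13) and Tcf3 (27.1 ± 0.977) followed, and each overlapped its neighbour in this order, with Id1 lowest at 9.39 ± 0.532. In Het the order was Tcf4 (287 ± 34.9), Id2 (126 ± 10.6), Tcf12 (37.7 ± 1.97), Tcf3 (37.3 ± 3.65), Id3 (28.3 ± 3.84), Id4 (15 ± 1.03) and Id1 (8.70 ± 2.28), and here Tcf12 and Tcf3 overlapped. In KO, Id2 stood below the E protein genes at 30.1 ± 1.18 FPKM, after Tcf4 (244 ± 2.00), Tcf12 (46.7 ± 1.65) and Tcf3 (43.9 ± 2.17). Id3 (18.9 ± 2.53) and Id4 (18.8 ± 0.377) overlapped in KO, as did Tcf12 and Tcf3, and Id1 was again last (11.4 ± 3.08).

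Summed per family, Id mRNA was lowest in KO, and the E protein sum of KO lay inside the range of Het. The 3 E protein genes summed to 273 to 330 FPKM in WT, 323 to 400 in Het and 331 to 336 in KO. Tcf4 made up 82.4% ± 1.41 of that sum in WT, 79.2% ± 1.36 in Het and 72.9% ± 0.914 in KO (SD, n = 3). The sum of Tcf3 and Tcf12 alone was 54.2 ± 1.84 FPKM in WT, 75 ± 5.15 in Het and 90.6 ± 3.67 in KO.

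The 4 Id genes summed to 140 to 156 FPKM in WT, 163 to 189 in Het and 71.9 to 84.0 in KO. Id2 made up 55.0% ± 5.06 of the Id sum in WT, 70.7% ± 1.98 in Het and 38.1% ± 2.69 in KO. Id4 made up 19.3% ± 3.23, 8.49% ± 1.23 and 23.9% ± 1.56. The ratio of the Id sum to the E protein sum was 0.423 to 0.548 in WT, 0.408 to 0.560 in Het and 0.214 to 0.250 in KO. WT and Het overlap, and each KO library lies below every other. These sums are descriptions of mRNA without a test, and they count Tcf4 reads in the KO libraries whatever those transcripts encode.

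**Figure D3:**
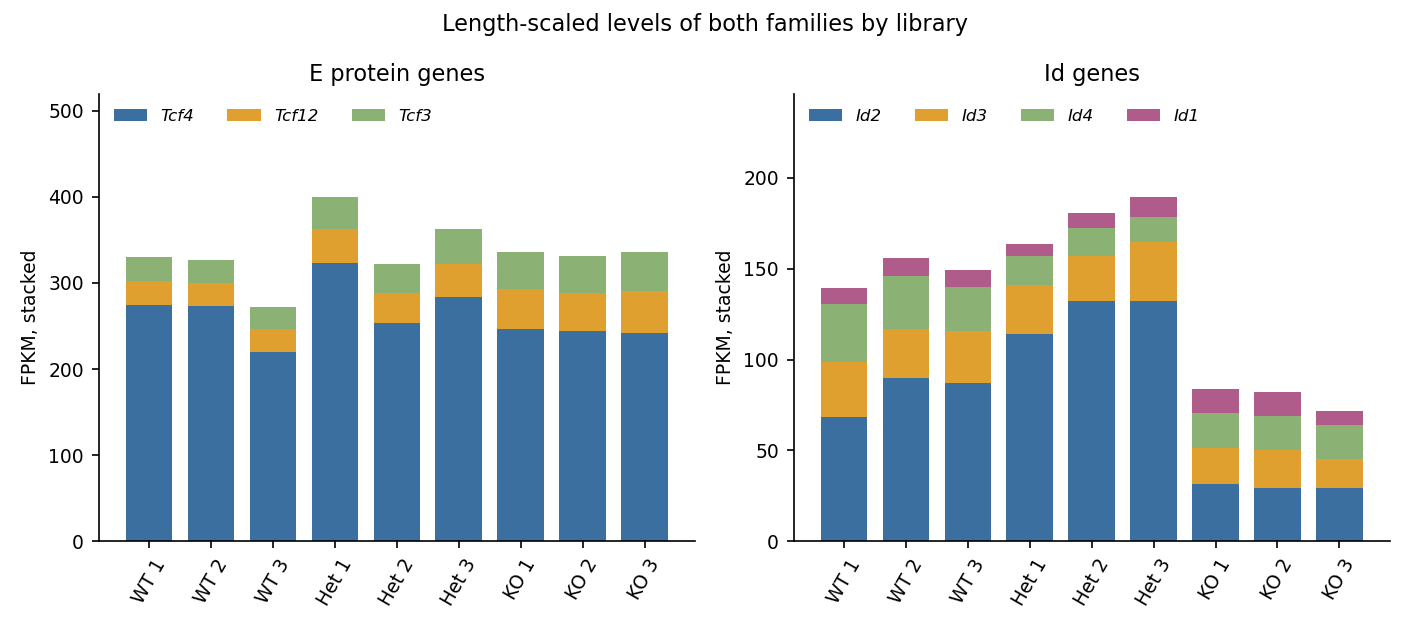
Stacked FPKM (vertical axis, from 0) of the 3 E protein genes on the left and the 4 Id genes on the right, 1 bar per library. Tcf4 fills most of every bar on the left, and on the right the KO bars (71.9 to 84.0) are lower than all others, with the Id2 segment smallest there.

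Genes whose pattern over the 9 libraries was most like that of each member were taken from 9729 protein-coding genes by Pearson correlation of log2 CPM, given as a description. The libraries share genotype, depth and handling within groups, and the correlation over the 6 Het and KO libraries is given second. For Id2 they were Cntn2, an axonal adhesion molecule (r = 0.989 and 1.0), the Wnt ligand gene Wnt7b (0.979 and 0.98) and Eml1, a microtubule protein gene (0.978 and 0.98). Cntn2 averaged 538 CPM in WT, 735 in Het and 189 in KO, so it too was highest in Het and lowest in KO. For Tcf12 they were Neurog2, the proneural factor of cortical progenitors (0.994 and 0.99), the centromeric histone gene Cenpa (0.994 and 0.98) and the histone variant gene H2afy (0.994 and 0.98). For Tcf3 they were Insm1, a zinc finger factor of intermediate progenitors (0.994 and 0.99), the nucleoporin gene Nup85 (0.992 and 0.97) and Plp2 (0.991 and 0.97).

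Id4 was most like Tmem158 (0.983 and 0.95) and the kinase gene Nlk (0.981 and 0.96). Tmem158 averaged 146 CPM in WT, 91.9 in Het and 108 in KO, and Nlk 59.3, 39.7 and 47.9, both in the same order of groups as Id4. Id3 was most like Fat1, an atypical cadherin gene (0.966 and 0.96), at 121, 111 and 72.0 CPM in WT, Het and KO, followed by Lmln (0.955 and 0.97) and Zfp142 (0.946 and 0.96). The nearest genes to Tcf4 were Dyrk2 (0.943 and 0.95), Eif5b (0.935 and 0.94) and Tbl1xr1 (0.927 and 0.92). Those nearest to Id1 were Frmd8 (0.953 and 0.96) and Apc2 (0.928 and 0.93).

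**Figure D4:**
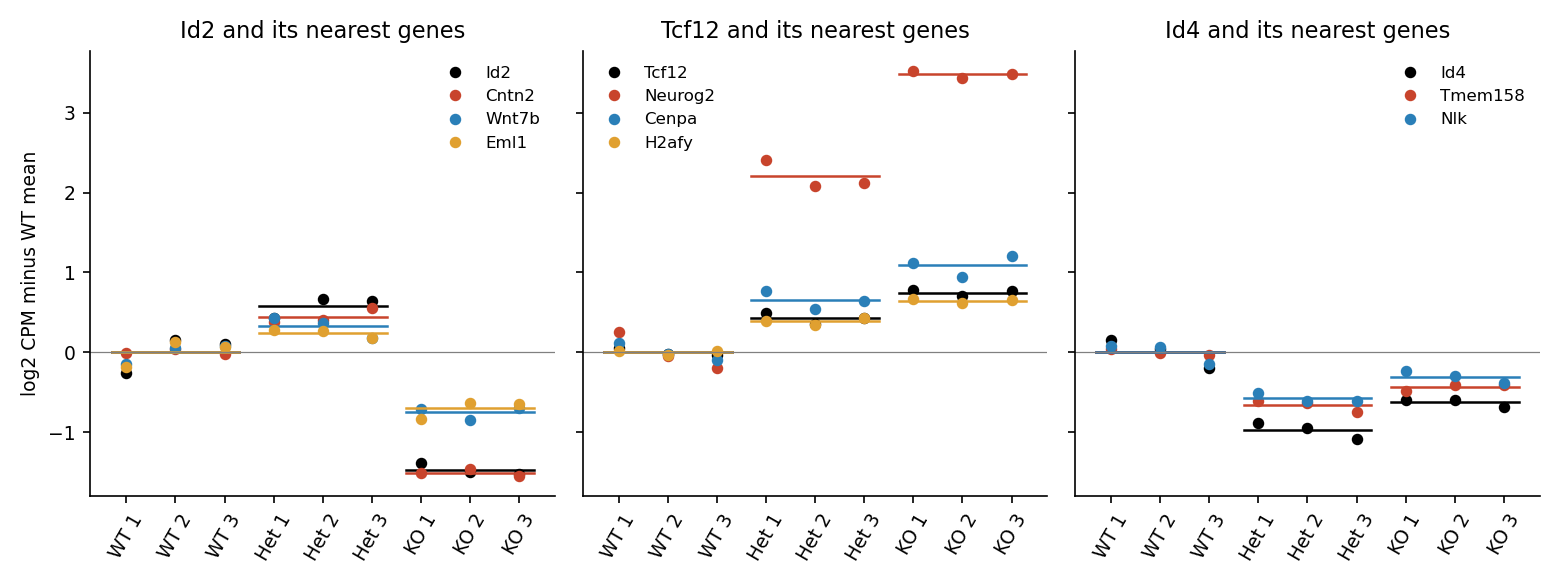
Log2 CPM minus the WT mean (vertical axis) in each library for Id2, Tcf12 and Id4 (black) and genes most like each (colours); points are libraries and bars are group means. The Id2 panel shows Het above and KO below WT for all genes drawn, with Cntn2 at 735 CPM in Het and 189 in KO.

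Class II bHLH genes, whose products pair with E proteins, were called higher more often than lower in KO and Het. Of 28 listed genes 17 were tested, and 9 were higher and 2 lower in KO than WT (median log2 fold change 0.73, against 0.009 for all tested genes), where 26.5% of all tested genes were higher and 26.3% lower. In Het 9 were higher and 3 lower (median 0.62, against 0.013), where 22.5% of all tested genes were higher and 23.4% lower. Neurog2 averaged 5.59 ± 0.911 CPM in WT, 25.7 ± 3.17 in Het and 61.8 ± 1.90 in KO (SD, n = 3), a log2 rise over WT of 3.47 (SE 0.11) in KO and 2.20 (SE 0.11) in Het. Neurod1, a neuronal differentiation factor, averaged 21.4 ± 3.59, 46.4 ± 1.90 and 96.2 ± 1.35 CPM. Nhlh2, a factor of young neurons, had 1.59 (SE 0.15) for KO versus WT. Its relative Nhlh1 had 1.45 (SE 0.41), which was 2.27 without WT replicate 1 and lost its call without WT replicate 2 (1.26, adjusted p = 0.054) or KO replicate 1 (1.38). Both genes lower in KO were Olig1 (-1.13) and Olig2 (-0.34), factors of the oligodendrocyte lineage, chosen for naming after their values were seen. In KO versus Het, 4 of the 17 were higher and 1 lower, with Neurog2 at 1.27 (SE 0.09) and Neurod1 at 1.05 (SE 0.09) among those higher. Nhlh2 is also on the list of 8 Cajal-Retzius cell markers, of which 7 were higher and none lower than WT in both KO and Het. Neurog2, Neurod2, Neurod6, Olig1 and Olig2 are on other marker lists, so the class II values are not separate from the marker values. The part of those cells in the class II values was not tested.

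The Hes, Hey and related genes encode bHLH repressors, many of them targets of Notch. Of 10 tested, 2 were higher and 2 lower in KO than WT (median -0.17), 1 higher and 6 lower in Het (median -0.43), and 3 higher and none lower in KO than Het. Over all tested genes 52.8%, 45.9% and 16.7% were called in these comparisons, so the 4 called of 10 in KO versus WT are no more than the background. By direction, 22.5% of all tested genes were higher and 23.4% lower in Het versus WT, and 8.30% and 8.44% in KO versus Het. Hey1 was lower than WT in KO (-0.47, SE 0.08) and Het (-0.57, SE 0.08), and Heyl averaged 8.30 ± 0.749 CPM in WT, 5.89 ± 0.231 in Het and 5.09 ± 0.566 in KO. Hes6, which is known to counter Hes1, was higher in KO than WT (0.39, SE 0.06). Bhlhe40 had 0.34 (SE 0.13, adjusted p = 0.041) for KO versus WT, a call lost without WT replicate 1 (0.18), WT replicate 3 (0.37), Het replicate 2 (0.35), KO replicate 1 (0.33), KO replicate 2 (0.32) or KO replicate 3 (0.38). The count of higher genes in KO versus WT was then 1. In KO versus Het that count was 1 without any single Het library, without KO replicate 1 or without KO replicate 2.

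Cofactors of E proteins were called in both directions, as all tested genes were. Of 16 tested, 7 were higher and 5 lower in KO than WT (median 0.05), 7 higher and 2 lower in Het (1 lower without WT replicate 3), and 2 higher and 3 lower in KO than Het. The shares of all tested genes were 26.5% higher and 26.3% lower in KO versus WT, 22.5% and 23.4% in Het versus WT, and 8.30% and 8.44% in KO versus Het. Cbfa2t3, a corepressor of the ETO family that binds E proteins, averaged 30.2 ± 3.73 CPM in WT, 31.1 ± 0.717 in Het and 21.1 ± 1.1 in KO. The LIM-only adaptor genes differed among themselves in KO versus WT, with Lmo1 at 0.67 (SE 0.08), Lmo2 at -0.80 (SE 0.11) and Lmo3 at -0.81 (SE 0.14). Kat2b, an acetyltransferase gene, averaged 5.86 ± 0.780, 7.39 ± 0.897 and 11.4 ± 1.13 CPM in WT, Het and KO.

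BMP and SMAD genes, upstream of Id transcription, were also called both ways, in a background of 52.8% of all tested genes called in KO versus WT, 45.9% in Het versus WT and 16.7% in KO versus Het, each split about evenly. Of 35 tested, 16 were higher and 7 lower in KO than WT (median 0.13) and 13 higher and 7 lower in Het (7 higher without WT replicate 3, and 4 lower without WT replicate 2). In KO versus Het 6 were higher and 2 lower, with 3 higher without KO replicate 2. Among ligands, Bmp3, which acts against other BMPs, averaged 5.38 ± 0.632 CPM in WT, 8.51 ± 0.636 in Het and 13.2 ± 1.01 in KO, and Gdf5 1.51 ± 0.729, 3.70 ± 0.862 and 4.76 ± 1.21. Smad6, an inhibitor within the pathway and itself a known BMP target, averaged 2.18 ± 0.352, 1.81 ± 0.428 and 4.22 ± 0.961 CPM, with a log2 fold change of 0.95 (SE 0.22) for KO versus WT. Fst, which encodes follistatin, an antagonist of activins and some BMPs, averaged 7.09 ± 1.22 CPM in WT, 11.9 ± 1.07 in Het and 1.07 ± 0.176 in KO, the same order of groups as Id2. Its log2 fold change for KO versus WT was -2.71 (SE 0.18), and on the log2(FPKM + 1) scale, which shrinks low genes, -1.43.

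Cyclin-dependent kinase inhibitors, some of them known E protein targets, and the cyclins and kinases of the same step formed the last group. Of 14 tested, 7 were higher and 1 lower in KO than WT (median 0.32), with 2 lower without KO replicate 1, and 4 were higher and 3 lower in Het (median 0.16). In KO versus Het 6 were higher and none lower, with 3 higher without KO replicate 1 or KO replicate 2, and 1 lower without WT replicate 1. In both directions together, the 8 called in KO versus WT and 7 in Het versus WT are near the 52.8% and 45.9% of all tested genes, and in KO versus Het 16.7% of all tested genes were called. By direction, all tested genes were 26.5% higher and 26.3% lower in KO versus WT and 22.5% and 23.4% in Het versus WT. In KO versus Het these shares were 8.30% and 8.44%. Cdkn1b averaged 109 ± 6.12 CPM in WT, 163 ± 6.82 in Het and 211 ± 11.5 in KO, stepping up as Tcf3 and Tcf12 did. Cdkn1c averaged 74.9 ± 5.52, 129 ± 2.64 and 115 ± 9.80 CPM, and Cdk4, a kinase that drives the same step, 176 ± 7.05, 244 ± 6.32 and 273 ± 2.33. Cdkn2c and Cdk6 were higher in KO than WT at 0.82 (SE 0.10) and 1.04 (SE 0.19). Cdkn1a, a classic E protein target, was the 1 lower gene in KO versus WT (-0.60, adjusted p = 0.0016) and was chosen for naming after its value was seen.

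**Figure D5:**
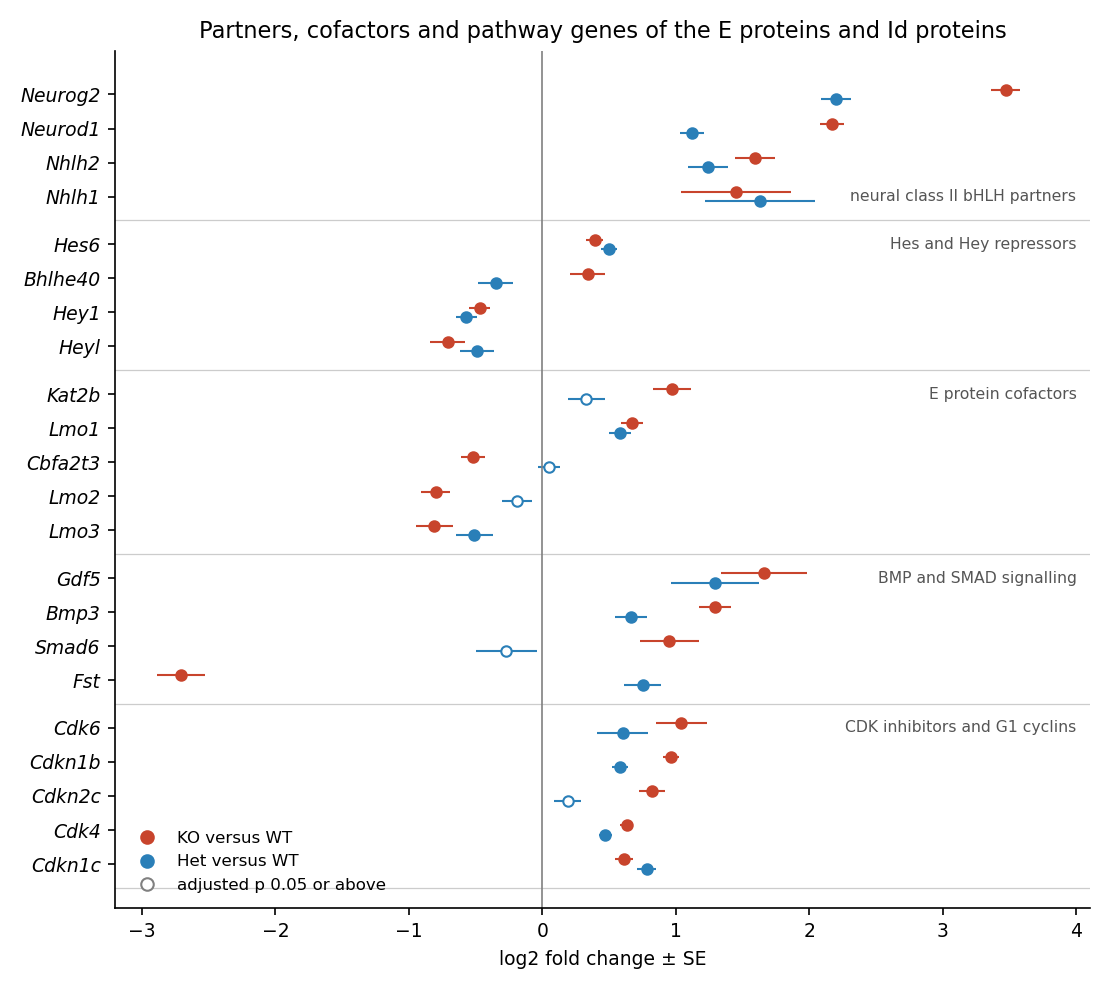
Log2 fold change ± SE (horizontal axis) for KO versus WT and Het versus WT of the named genes in 5 groups: bHLH partners, Hes and Hey repressors, cofactors, BMP and SMAD genes, and cell cycle regulators; open points had an adjusted p of 0.05 or above. Neurog2 has the largest rise (3.47 in KO), and Fst lies on opposite sides of 0 in KO (-2.71) and Het (0.75).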

How the data were processed

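The authors deposited raw counts per Ensembl gene for the 9 libraries and FPKM values, which equal the counts divided by 1 length per gene and by the library total (largest log2 difference 3.8e-14). The submitters' processing notes name DESeq 1.10.1, HTSeq 0.6.1, TopHat2 2.0.9, Bowtie2 2.0.6 and the build mm10, without a role for each. Strand use and the handling of reads that match several genes are not given in the sources used here. Symbols and positions for 40254 of 41128 genes came from GENCODE M21 (mm10).

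Counts were fitted with edgeR 4.0.16 in R 4.3.3: filterByExpr (minimum count 10, minimum total 15; 15271 genes), TMM scaling, then glmQLFit with its robust option on the 3 genotypes together (9 libraries, 6 residual degrees of freedom). Genes were called at a Benjamini-Hochberg adjusted p under 0.05 over all tested genes. CPM use TMM-scaled totals; the SE is the log2 fold change divided by the root of F. Correlations used log2 CPM with a prior count of 2. The fit was tested on simulated data in which few genes were changed, in KO only. That test does not cover changes as widespread as those called here. Replicates of a group differed by more than sampling noise (chi-square per gene 2.78 to 19.3).

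The members, gene lists and tests were chosen with earlier results of these data known. The rule for names took all members, up to 5 called genes per list with the largest KO versus WT change (mean log2 CPM of at least 1), and the 3 nearest genes per member; a few genes so chosen are not reported here, while the list counts and sums include them. Alternatives, whose effect is given at the end, were other scalings and filters, DESeq2 1.42.0, a replicate block, limma 3.58.1 on log2(FPKM + 1) and log2(FPKM + 0.1), a fit of the 2 genotypes at issue alone, offsets for GC content and length (mgcv 1.9.3), and each library left out. Figures used Python 3.11.15 and matplotlib 3.10.9.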

Additional observations from a re-analysis of the deposited data

Results flagged for a closer look

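3 named genes were called in opposite directions in KO and Het when each was compared with the same WT libraries, and the difference between KO and Het was itself past the threshold in edgeR's quasi-likelihood test. Id2 was lower in KO (-1.48) and higher in Het (0.57), with a KO versus Het value of -2.05 (adjusted p = 8.4e-07). Fst was lower in KO (-2.71) and higher in Het (0.75), with a KO versus Het value of -3.46 (adjusted p = 1.3e-09). Bhlhe40 was higher in KO (0.34) and lower in Het (-0.35), with a KO versus Het value of 0.69 (adjusted p = 0.0029). The calls for Id2 and Fst held under all 22 alternatives in each comparison, whereas Bhlhe40 lost its KO versus WT call under 8 of the 22 and its Het versus WT call under 13. Het also differs from both other groups in Hprt, and that difference and the labelled genotype cannot be told apart for these genes.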

How the results depend on the processing

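Of 462 member values under 22 alternatives, 445 kept their direction and side of the threshold, and the 3 comparisons kept 5, 4 and 5 called members within 1.5 times. With libraries left out singly, KO versus WT ran from -0.20 to -0.05 for Tcf4 and from 0.10 to 0.47 for Id1, and Het versus WT from -0.35 to 0.02 for Id1 (above 0 without Het replicate 1) and from -0.16 to 0.03 for Id3 (above 0 without Het replicate 2). KO versus Het ran from -0.31 to -0.14 for Tcf4, 0.17 to 0.31 for Tcf3, 0.29 to 0.38 for Id4 and 0.23 to 0.61 for Id1, and its number of called genes from 1432 to 2561. Tcf4 in KO versus Het passed the threshold with no filter (-0.22) and with only the genotypes compared (-0.23). Leaving out WT replicate 2 and KO replicate 3 together, chosen after seeing the data, gave Id1 0.52 for KO versus WT and 0.62 for KO versus Het, both past the threshold, and Tcf3 0.22 for KO versus Het, short of it. The cause of these changes was not tested. Signs turned near 0 for Cbfa2t3 in Het versus WT without WT replicate 2 (-0.02, range -0.02 to 0.15, also -0.02 with KO replicate 3 left out too) and Lmo1 in KO versus Het without Het replicate 2 (-0.00 to 0.15). Of 1452 values of the named pathway genes 1388 kept direction and side, and 631 of 660 list counts stayed within 1.5 times. Another scaling moved the median of all genes by less than 0.1.

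No pairing of the samples by replicate number was seen: same-numbered libraries of different groups had correlations of -0.11 to 0.08, others -0.14 to 0.10. A pairing that touched few genes would not show in these correlations. With a replicate block 7775 genes were called in KO versus WT, 6641 in Het versus WT and 2166 in KO versus Het, with 5, 4 and 5 members. Id1 had the fewest counts of the members, with a counting error of 4.93% to 7.81%.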
